A study of Mus musculus with 5 samples.

Results

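CBX2 occupancy was examined at 10 T-box genes of mouse embryonic fibroblasts (MEFs), namely Tbx1, Tbx2, Tbx3, Tbx4, Tbx5, Tbx15, Tbx18, Tbx20, Eomes and Tbr1. They were taken by name from the 22367 protein-coding genes of the annotation. A CBX2 peak was assigned to a gene when it overlapped the gene body, or the 5000 bp on either side of it, by at least 1 bp. The series mapped CBX2, a chromatin-binding subunit of Polycomb Repressive Complex 1 (PRC1), by ChIP-Seq of cross-linked chromatin treated with micrococcal nuclease and then sonicated. The Control group was control cells of a MEF line from an embryo with loxP sites around part of EED, not deleted for it. Whether they were untransduced or carried an empty vector is not stated in the study's methods. The EZHIP group was made from the same MEF line with a lentivirus that stably expressed human EZHIP, a protein of posterior fossa ependymomas. The K27M group was made in the same way with H3.3 K27M, a histone mutant of diffuse midline gliomas, so all 3 groups shared the EED floxed background. Each group had 1 library and 1 list of broad peaks, and no replicate error or test was therefore available. The lists held 289 Control, 255 EZHIP and 327 K27M peaks without heights, and the read depth behind them is unknown. The K27R and EEDnull libraries that the labels describe were not analysed here.

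T-box genes encode transcription factors that share a DNA-binding domain and pattern the mesoderm, limbs, heart and parts of the brain. Many are held silent outside their own tissues by Polycomb. Polycomb Repressive Complex 2 (PRC2) is recruited to CpG islands and trimethylates lysine 27 of histone H3, and CBX proteins let PRC1 bind that mark. Both EZHIP and H3.3 K27M inhibit PRC2, and the comparison addressed where CBX2 was found when they did. The label of limb and heart genes suits Tbx1 to Tbx5, Tbx15, Tbx18 and Tbx20. Eomes is better known from gastrulation and from cortical progenitors, and Tbr1 from deep-layer neurons of the cortex.

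Of the 10 genes, 4 had a peak in 1 list or more, against 2.27% of all protein-coding genes. Tbx20 and Tbx2 had a peak in every list, Tbx1 in K27M alone and Tbr1 in Control alone. Tbx3, Tbx4, Tbx5, Tbx15, Tbx18 and Eomes had none. The counts were 3 of 10 in Control (30%, exact 95% interval 6.67 to 65.2%), 2 of 10 in EZHIP (20%, 2.52 to 55.6%) and 3 of 10 in K27M (30%, 6.67 to 65.2%). By the same rule a peak lay at 1.78% of all protein-coding genes in K27M, 1.44% in EZHIP and 1.49% in Control. The intervals of the 3 lists overlap each other widely. They cover counting error only and treat genes as independent draws, whereas these genes were picked for study with earlier results of the data known.

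The sequences shown here were picked by rule, and whether a peak depends on any of them was not tested. Each stretch under a peak is the 300 bp richest in CpG outside annotated exons, within the part covered in every list that had a peak there. The Tbx2 sequence is instead the 250 bp before the gene, and the Tbx3 stretch was taken from the gene and its flanks. Capitals mark CpG dinucleotides. All are mm9 sequences read 5′ to 3′ on the strand named. The Tbx3 stretch, 91 to 390 bp before that gene and in an intron of Gm2301, is shown as CpG-rich sequence at a gene without a peak.
Tbx20, upstream of the gene, in all lists (chr9:24585441-24585740, minus strand): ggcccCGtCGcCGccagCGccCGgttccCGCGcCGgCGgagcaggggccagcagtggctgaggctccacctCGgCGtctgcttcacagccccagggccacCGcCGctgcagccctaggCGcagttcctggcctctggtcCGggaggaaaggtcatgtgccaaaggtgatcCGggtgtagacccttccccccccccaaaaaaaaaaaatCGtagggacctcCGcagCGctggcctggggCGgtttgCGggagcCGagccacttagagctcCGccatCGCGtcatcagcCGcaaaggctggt
Tbx2, directly before the 5′ end, in EZHIP alone (chr11:85645803-85646052, plus strand): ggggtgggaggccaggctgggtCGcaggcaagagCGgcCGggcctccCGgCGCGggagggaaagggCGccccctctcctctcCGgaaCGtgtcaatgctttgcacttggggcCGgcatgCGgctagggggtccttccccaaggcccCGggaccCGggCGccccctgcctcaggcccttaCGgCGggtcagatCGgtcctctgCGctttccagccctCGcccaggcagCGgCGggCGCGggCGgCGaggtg
Tbx1, intronic, in K27M alone (chr16:18587071-18587370, minus strand): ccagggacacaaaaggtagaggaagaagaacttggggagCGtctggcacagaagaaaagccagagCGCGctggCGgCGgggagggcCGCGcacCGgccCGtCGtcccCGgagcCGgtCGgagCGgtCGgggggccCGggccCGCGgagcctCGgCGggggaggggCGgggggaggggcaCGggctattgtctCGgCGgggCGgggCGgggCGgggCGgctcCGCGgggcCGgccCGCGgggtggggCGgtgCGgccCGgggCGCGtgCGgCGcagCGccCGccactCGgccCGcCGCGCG
Tbr1, intronic, in Control alone (chr2:61643631-61643930, plus strand): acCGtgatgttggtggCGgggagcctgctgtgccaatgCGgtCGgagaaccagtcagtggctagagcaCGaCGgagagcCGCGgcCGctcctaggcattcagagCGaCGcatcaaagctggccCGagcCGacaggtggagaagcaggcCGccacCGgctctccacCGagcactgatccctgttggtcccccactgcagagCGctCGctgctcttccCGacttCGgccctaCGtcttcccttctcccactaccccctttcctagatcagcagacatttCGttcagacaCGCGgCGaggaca
Tbx3-Tbx5 interval, intergenic, in all lists (chr5:120253881-120254180, plus strand): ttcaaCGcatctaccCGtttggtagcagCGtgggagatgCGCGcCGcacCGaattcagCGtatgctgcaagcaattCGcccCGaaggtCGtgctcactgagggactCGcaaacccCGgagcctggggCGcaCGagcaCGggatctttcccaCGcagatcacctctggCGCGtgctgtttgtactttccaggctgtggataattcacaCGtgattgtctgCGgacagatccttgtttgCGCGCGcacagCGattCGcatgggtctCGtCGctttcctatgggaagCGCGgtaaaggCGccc
Tbx3, upstream of the gene, in no list (chr5:120120288-120120587, plus strand): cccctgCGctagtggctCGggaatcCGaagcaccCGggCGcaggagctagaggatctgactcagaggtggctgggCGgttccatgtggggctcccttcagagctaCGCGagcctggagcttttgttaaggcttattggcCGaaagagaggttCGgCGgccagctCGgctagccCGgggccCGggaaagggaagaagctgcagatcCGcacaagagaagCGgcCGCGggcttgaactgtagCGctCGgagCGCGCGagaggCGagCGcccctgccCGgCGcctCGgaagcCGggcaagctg

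Each 300 bp stretch was picked as the richest in CpG of its region, and the regions differed in length. The counts are therefore selected maxima and do not compare sequence under peaks with sequence elsewhere. The Tbx1 stretch held 47 CpG in 300 bp, the Tbx3-Tbx5 stretch 31, the Tbx20 stretch 26 and the Tbr1 stretch 25. The 250 bp before the Tbx2 start held 25, and the Tbx3 stretch, which no peak covered, held 29.

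Tbx20, a regulator of heart chamber growth, had the widest CBX2 peak of these genes in every list. The gene (ENSMUSG00000031965.7) lies on the minus strand of chromosome 9 (24527648 to 24578746, mm9). Its Control peak spanned 14.8 kb (24571001 to 24585800), its EZHIP peak 15.2 kb (24571201 to 24586400) and its K27M peak 16.8 kb (24570801 to 24587600). Each peak contained the 5′ end of the gene, which is shared by all of its 3 annotated coding transcripts. The core common to the lists was 14.6 kb long, or 86.9% of the 16.8 kb that any list covered.

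The edges of the Tbx20 domain differed mainly on its upstream side. There the peak reached 8854 bp before the 5′ end in K27M, 7654 bp in EZHIP and 7054 bp in Control. On the side of the gene body it ended 7945, 7545 and 7745 bp after the 5′ end in the same order, which is a spread of 2 bins of 200 bp. The peak is made of whole bins, so smaller differences cannot be seen. The log2 ratio of width to Control was 0.04 in EZHIP and 0.18 in K27M. At the 156 sites with exactly 1 peak in each list, the median ratio was -0.09 in EZHIP and 0.19 in K27M. An edge of such a site moved by a median of 800 bp between Control and EZHIP and of 1200 bp between Control and K27M. The upstream move of 1800 bp at Tbx20 in K27M exceeded 61.9% of these edge moves, and the move of 600 bp in EZHIP exceeded 40.1%. The width ratio itself lay above that of 72.4% of the sites in EZHIP and 48.7% in K27M.

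**Figure D1:**
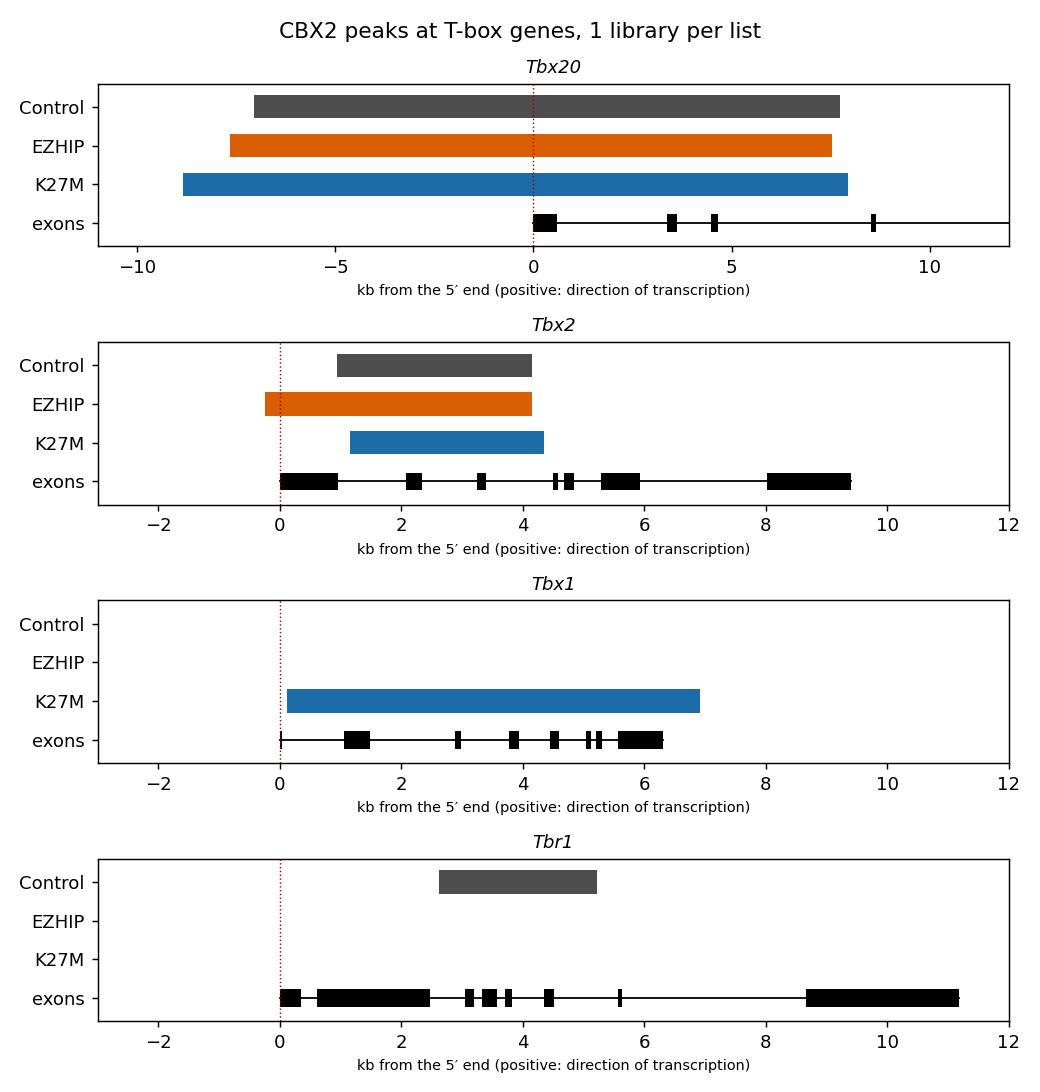
CBX2 peaks at the 4 T-box genes that had one, drawn to scale as coloured bars (Control grey, EZHIP orange, K27M blue, 1 library each) against the distance in kb from the 5′ end of the gene (dotted line), with merged exons in black. The Tbx20 peak spans the 5′ end in every list, the Tbx2 peak does so in EZHIP alone, and Tbx1 and Tbr1 have a peak in 1 list each.

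All 2350 bp of CpG island sequence at Tbx20 lay under the peak in every list. Island sequence was counted as 500 bp windows with at least 55% G+C in which CpG reached 0.65 times or more the frequency that base composition predicts. Within the gene and its flanks, CpG density under the Control peak was 22.6 per kb, against 7.1 per kb outside it. The 1800 bp that K27M added upstream held 11.1 CpG per kb, and the 600 bp that EZHIP added held 25.0. The Tbx20 stretch shown above lies near the upstream edge, 6695 to 6994 bp before the annotated start. Of 148 sampled 32-mers in the Control peak, 1 occurred more than once in the genome (0.676%). No other annotated gene start lay in the domain.

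Tbx2 encodes a repressor that marks the non-chamber myocardium and the limb margins, and it had a narrow peak in every list. The K27M peak ranked 287 of 327 by width, so Tbx2 had none in K27M when the 255 widest peaks of each list were compared. The gene (ENSMUSG00000000093.6) lies on the plus strand of chromosome 11 (85646053 to 85655450). The Control peak spanned 3.2 kb (85647001 to 85650200), the EZHIP peak 4.4 kb (85645801 to 85650200) and the K27M peak 3.2 kb (85647201 to 85650400). Its downstream edge was the same in Control and EZHIP and lay 200 bp further on in K27M. At the other edge, the peak began 948 bp after the 5′ end in Control and 1148 bp after it in K27M, but 252 bp before it in EZHIP. The 5′ end of Tbx2 was therefore inside a peak in EZHIP alone.

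The strip of 1200 bp that only the EZHIP peak covered compared to Control was rich in CpG, as were other stretches of the locus outside every peak. It held 128 CpG, or 106.7 per kb, at 72.2% G+C, while the whole Control peak held 23.12 per kb and the whole K27M peak 20.31 per kb. The Control and K27M peaks had no CpG island window and the EZHIP peak had one. Of the 7850 bp of island sequence at Tbx2, 3.85% lay under the Control peak, 2.55% under the K27M peak and 19.1% under the EZHIP peak. CpG density was lower under the Control peak than in the rest of the locus, at 23.1 against 43.7 per kb, the reverse of the order at Tbx20. The K27M peak had the same order as Control, at 20.3 against 44.3 per kb. Under the EZHIP peak density was higher than in the rest, at 45.9 against 38.7 per kb, as at Tbx20. In Control, 2782 bp of the 3200 bp under the peak were intron and 418 bp coding exon. The sampled 32-mers in the Control peak were 6.25% multi-copy (2 of 32).

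The log2 ratio of EZHIP to Control width at Tbx2 was 0.46, above that of 92.9% of the 156 sites. An EZHIP peak wider than Control was found at 28.2% of these sites, and at both T-box genes with a peak in the lists. A K27M peak wider than Control was found at 74.4% of the sites. It was also found at Tbx20, while at Tbx2 the K27M and Control widths were equal. These values describe 2 genes and no common behaviour. The single edge move of 1200 bp at Tbx2 in EZHIP exceeded 61.5% of edge moves between these lists.

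**Figure D2:**
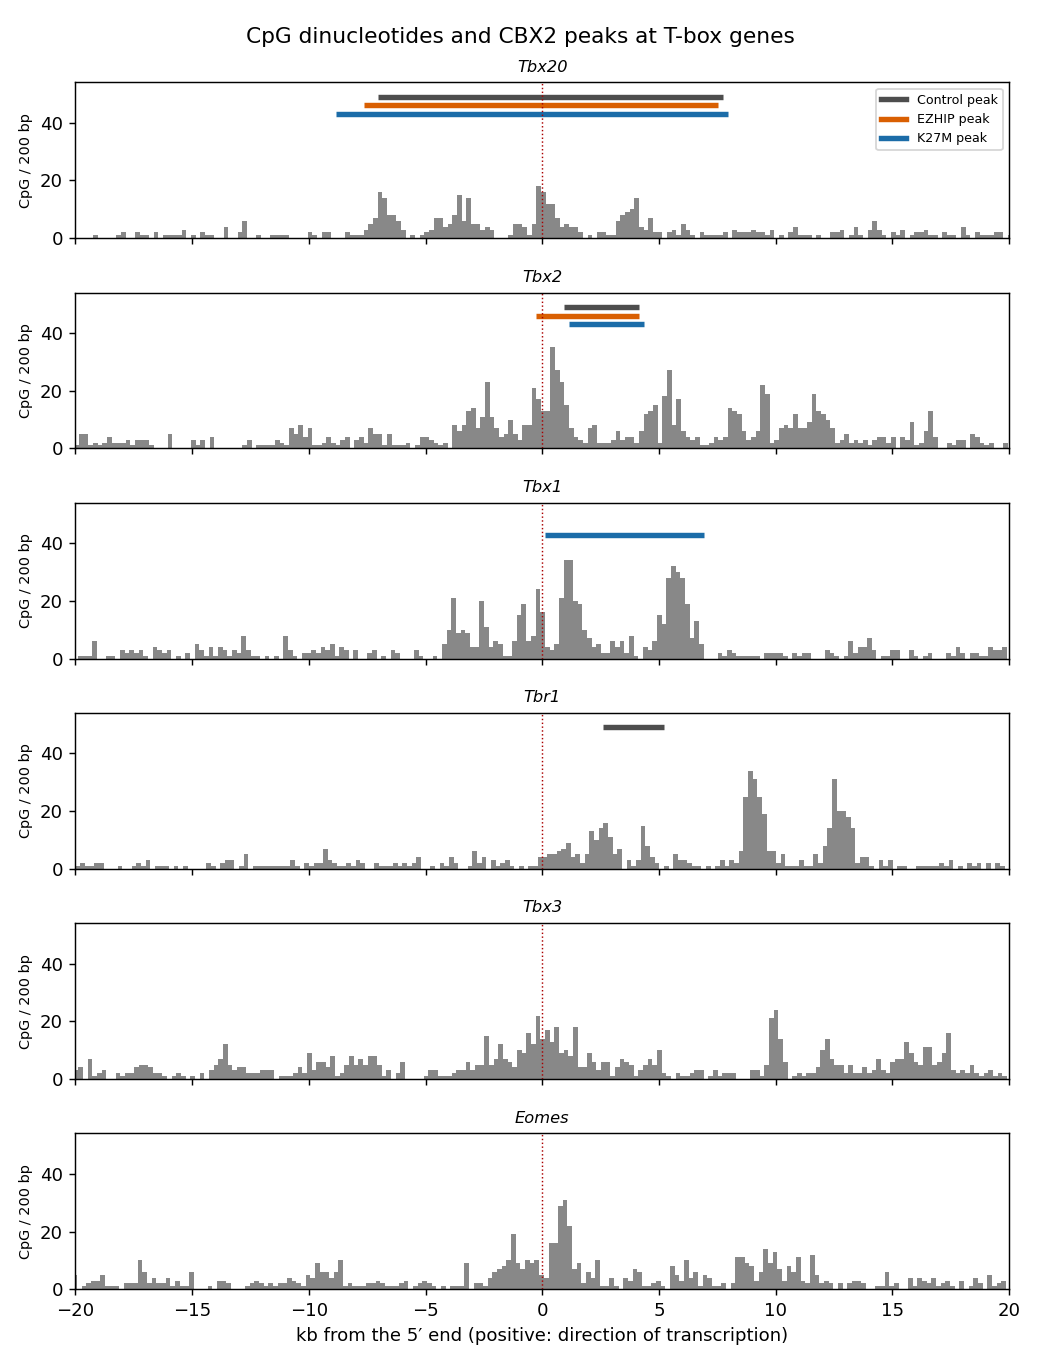
CpG dinucleotides per bin of 200 bp (grey bars, vertical axis) within 20 kb of the 5′ end of 6 T-box genes, with CBX2 peaks of the 3 lists as coloured lines above. CpG clusters lie under the Tbx20 peaks and beside most of the Tbx2 peaks, and Tbx3 and Eomes have clusters at the 5′ end and no peak.

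Tbx1, which is required in the pharyngeal arches and the cardiac outflow tract, had a peak in K27M alone. The gene (ENSMUSG00000009097.8) lies on the minus strand of chromosome 16 (18581806 to 18588113). The K27M peak (18581201 to 18588000) was 6.8 kb wide and covered 6195 bp of the gene's 6308 bp, plus 605 bp beyond its 3′ end. It stopped 113 bp short of the annotated 5′ end, less than 1 bin. A shorter coding transcript, Tbx1-201, starts at 18587062 inside the peak, and the Tbx1 stretch shown above lies 9 bp before that start. At 58.68 CpG per kb, the Tbx1 peak was denser in CpG than 96.6% of the K27M peaks. None of its 68 sampled 32-mers was multi-copy. The nearest peak on the chromosome was 15.2 Mb away in Control and 72.6 Mb away in EZHIP. Of the 507 protein-coding genes with a peak in 1 list or more, 21.7% had it in K27M alone, so Tbx1 shared this pattern with 109 others.

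Tbr1 had a peak in Control alone. The gene (ENSMUSG00000035033.9) lies on the plus strand of chromosome 2 (61640987 to 61652171). Its Control peak (61643601 to 61646200) was 2.6 kb wide, and only 10.7% of the peaks of that list were narrower. It began 2614 bp after the annotated 5′ end of the gene, where a non-coding transcript starts, and covered 1919 bp of intron and 494 bp of coding exon. The start of the coding transcript Tbr1-002 (61644319) lay inside it, and that of Tbr1-001 (61642510) did not. It had no CpG island window of its own, at 28.85 CpG per kb, and touched 9.58% of the 4550 bp of island sequence at the gene. None of its 26 sampled 32-mers was multi-copy. The pattern of a peak in Control alone was found for 4.93% of the 507 genes, and a peak in all lists for 45%. Absence from the EZHIP and K27M lists shows that no peak was called there, and not that CBX2 was lost.

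**Figure D3:**
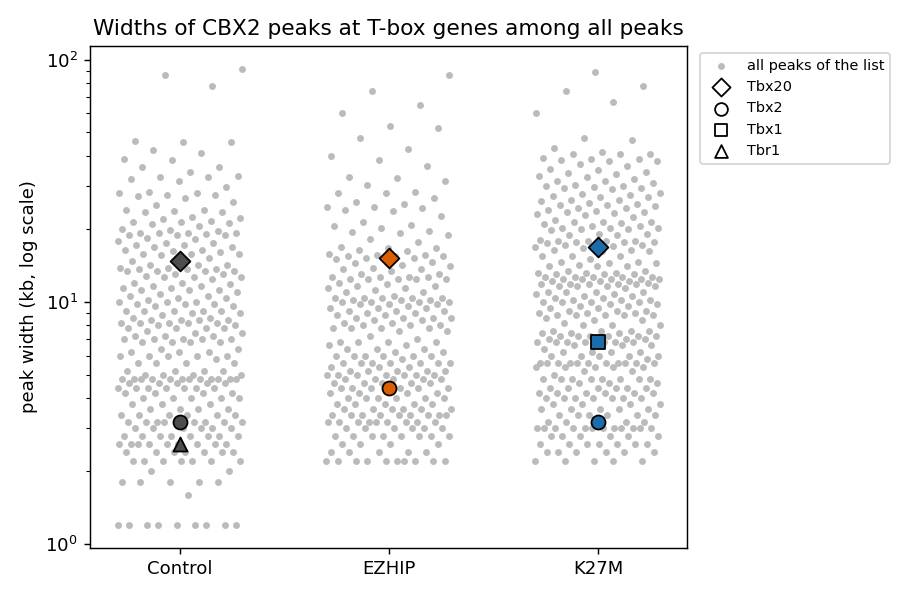
Widths of CBX2 peaks in kb on a log scale for each list, with every peak of the list as a grey point and the peaks at T-box genes as coloured symbols. Tbx20 is wider than 71.3 to 80.4% of the peaks of its list, whereas Tbx2 is wider than only 11 to 28.2% and Tbr1 than 10.7%.

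The position of the 5′ end was then compared with all genes. It lay in a peak for 1 of 10 T-box genes in Control (Tbx20), 2 in EZHIP (Tbx20 and Tbx2) and 1 in K27M (Tbx20). Over all protein-coding genes it did so for 1.19% in K27M, 0.894% in EZHIP and 0.903% in Control. A CpG island window lay within 1000 bp of the 5′ end in 7 of the 10 genes, all but Tbx4, Tbx5 and Tbr1. For Tbr1 and Tbx15 that 5′ end is the start of a non-coding transcript, so their class rests on it. Their first coding starts lie further on, at 61642510 and 99057683. Over the 11908 genes with such a window, the 5′ end was in a peak for 1.85% in K27M, 1.39% in EZHIP and 1.4% in Control. Tbx20 and Tbx2 belong to that class. When any coding transcript was allowed to supply the 5′ end, Tbr1 was added in Control and Tbx1 in K27M, which made 2 genes in each list. The share of all genes by this wider rule was not computed, and the shares above do not match it.

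**Figure D4:**
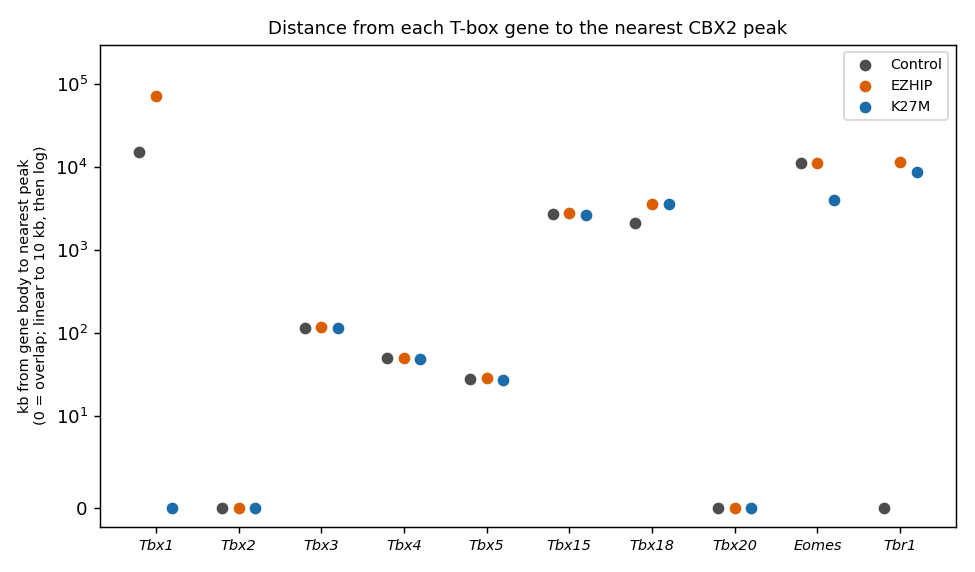
Distance in kb from the body of each T-box gene to the nearest CBX2 peak of each list (coloured points), on an axis that is linear to 10 kb and logarithmic beyond, with 0 for a peak that overlaps the gene. Tbx5, Tbx4 and Tbx3 have a peak 27.5 to 118 kb away in every list, while Tbx15, Tbx18 and Eomes have none within 2 Mb.

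The 6 T-box genes without a peak were split by distance to the nearest peak, after the distances were seen. For Tbx3, Tbx4 and Tbx5 it was 27.5 to 118 kb in every list, and for Tbx15, Tbx18 and Eomes at least 2.15 Mb. Tbx3 and Tbx5 had the same nearest peak, and that of Tbx4 was the Tbx2 peak. The share of all genes with a peak within 118 kb was not computed. Tbx5, needed for the forelimb and heart, and Tbx3, a close relative of Tbx2, lie next to each other on chromosome 5 on the plus strand (120284672 to 120335227 and 120120678 to 120134733). Between them lay 1 peak in each list. The Control peak spanned 5.6 kb (120251001 to 120256600), the EZHIP peak 3.6 kb (120252601 to 120256200) and the K27M peak 6.4 kb (120250801 to 120257200). It overlapped no annotated gene of any type, had a CpG island window in every list, and none of its sampled 32-mers was multi-copy. Its distance to the 5′ end of Tbx5 was 27.5 kb in K27M, 28.1 kb in Control and 28.5 kb in EZHIP, and Tbx3 ended 116 to 118 kb before it. The peak was singled out after its values were seen, and no link between it and either gene was measured.

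The intergenic peak kept its CpG-rich part in every list. The EZHIP peak was the core, at 3.6 kb, and the Control and K27M peaks extended it on both sides. The log2 width ratio to Control was -0.64 in EZHIP and 0.19 in K27M. The EZHIP ratio was lower than at most sites, with 12.8% of the 156 sites below it. The 1600 bp and 400 bp that EZHIP lacked held 7.5 and 15.0 CpG per kb, against 42.50 per kb in the EZHIP peak. EZHIP thus had the narrowest of the 3 peaks here and the widest at Tbx2.

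Tbx4, the hindlimb counterpart of Tbx5, lies downstream of Tbx2 on the same strand of chromosome 11 (85699924 to 85729599). Its nearest peak was the one in Tbx2, 49.7 kb away in Control and EZHIP and 49.5 kb in K27M. With a limit of 50 kb from the gene body, chosen after these distances were seen, 5 of 10 genes had a peak in Control, 4 in EZHIP and 5 in K27M. Over all protein-coding genes the shares were 3.42% in K27M, 2.57% in EZHIP and 2.81% in Control. The Tbx2 peak counts for both Tbx2 and Tbx4 under this limit, so these genes are not separate observations.

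Tbx15 and Tbx18, related genes of limb mesenchyme and of the epicardium and somites, lay far from any peak. The nearest to Tbx15 (chromosome 3, 99044304 to 99158182) was 2.66 Mb away in K27M, 2.75 Mb in Control and 2.84 Mb in EZHIP. For Tbx18 (chromosome 9, 87597635 to 87626095) it was 2.15 Mb in Control and 3.62 Mb in both other lists. Eomes (chromosome 9, 118387330 to 118395250) had its nearest peak 11.3 Mb away in Control and EZHIP and 4.08 Mb away in K27M. All of these genes had a CpG island window at the 5′ end. Island sequence at the 6 genes without a peak ranged from 1250 to 4350 bp, and at the 4 genes with a peak from 2350 to 7850 bp. These ranges overlapped through Tbx20 alone, at 2350 bp. Tbx2, Tbx1 and Tbr1 held 7850, 6600 and 4550 bp, more than any gene without a peak. The loci differed in length, and a link between island sequence and peaks was not tested.

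Close relatives within the family differed. Tbx2 had a peak in all lists and Tbx3 in none, and Tbr1 had a peak in Control whereas Eomes had none. Neither Tbx4 nor Tbx5, nor Tbx15 or Tbx18, had one. The 7 other T-box genes of the annotation, T, Tbx6, Tbx10, Tbx19, Tbx21, Tbx22 and Mga, had no peak in any list (0 of 7, exact 95% interval to 41%). That is near the 2.27% of all protein-coding genes with a peak in 1 list or more. Tbx10, the closest relative of Tbx1, was 1 of these 7.

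Genes that act with T-box factors were counted by the same rule. By it, a peak lay at 1.49% of all protein-coding genes in Control, 1.44% in EZHIP and 1.78% in K27M. Of 12 limb genes (Pitx1, Fgf8, Fgf10, Shh, Hand2, Meis1, Meis2, Sall1, Sall4, Shox2, Lmx1b and Grem1), 1 had a peak in Control, 2 in EZHIP and 4 in K27M. Pitx1, a hindlimb regulator upstream of Tbx4, had one in all lists, at 13.4 kb in K27M, 13 kb in Control and 11.6 kb in EZHIP. Hand2, Sall4 and Shh had one in K27M alone, and Lmx1b in EZHIP alone. Of 12 heart genes (Nkx2-5, Gata4, Gata5, Gata6, Hand1, Isl1, Mef2c, Irx4, Nppa, Nppb, Myh6 and Tnnt2), 4 had a peak in Control, 3 in EZHIP and 4 in K27M.

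Nkx2-5 and Isl1, cardiac progenitor regulators, had a peak over the 5′ end in every list, as Tbx20 did. The Nkx2-5 peak spanned 20.2 kb in K27M, 16.6 kb in EZHIP and 13.4 kb in Control. The Isl1 peak spanned 23.6, 20.8 and 21.6 kb in that order. At Gata4, peaks summed to 34.4 kb in Control, 16 kb in EZHIP, where there were 2, and 39.4 kb in K27M, without the 5′ end. Irx4 had a peak in K27M alone and Gata6 in Control alone.

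Of 8 forebrain genes taken as partners of Tbr1 and Eomes (Neurod1, Neurod6, Neurog2, Pax6, Emx1, Emx2, Fezf2 and Bcl11b), 3 had a peak in Control, 2 in EZHIP and 5 in K27M. Pax6 and Neurog2 had a peak in every list, Emx1 in Control and K27M, and Fezf2 and Neurod1 in K27M alone. The exact 95% intervals of the 8 genes were 8.52 to 75.5% in Control, 3.19 to 65.1% in EZHIP and 24.5 to 91.5% in K27M. They also overlap widely. None of 12 genes that fibroblasts are known to use, such as Col1a1, Col1a2, Vim and Pdgfra, had a peak in any list (exact 95% interval to 26.5%). By the same rule a peak lay at only 1.49% of all protein-coding genes in Control, 1.44% in EZHIP and 1.78% in K27M. At such shares most lists of 12 genes would lack a peak, so this absence cannot serve as a check of cell identity. Peaks do not measure expression, and the identity of the cells was not tested.

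**Figure D5:**
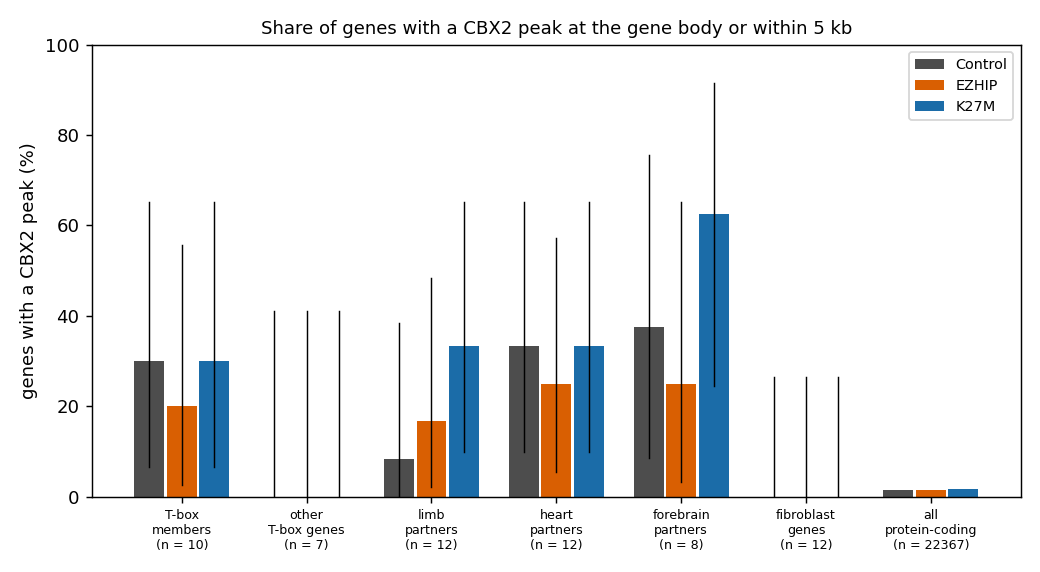
Percent of genes with a CBX2 peak at the gene body or within 5 kb, for the 10 T-box genes, the 5 other gene lists and all protein-coding genes (bars from 0, 1 per peak list), with exact 95% binomial intervals as vertical lines. The T-box genes stand at 20 to 30% and the heart genes at 25 to 33.3%. The other T-box and fibroblast genes stand at 0, near the 1.44 to 1.78% of all protein-coding genes.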

How the data were processed

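CBX2 ChIP-Seq peak lists of 3 groups, 1 library each, were used. Reads were aligned by the authors to mm9 with Bowtie 1.0.0, per the submitters' processing notes, and broad peaks were called with MOSAiCS-HMM, separately for each library. The study's methods give a false discovery limit, a largest gap for joining, a smallest width and a threshold particular to CBX2. They also define scaling by reads on a spiked-in genome or by all aligned reads. Whether scaling preceded calling, and whether an input was used, are not given in the sources used here. A deeper library can yield more and wider peaks, and joining can widen them. The deposited files have 3 columns, chromosome, start and end, with no other value. Starts were multiples of 200 and ends lay 199 above one, and peaks were read as whole bins and written 1-based.

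Genes came from GENCODE vM1 and sequence from NCBIM37, the assembly of mm9. CpG island windows were moved in steps of 50 bp. Overlaps, edges, CpG content and 32-mers sampled every 100 bp were computed in Python 3.11.15 with NumPy 2.4.6. Intervals are exact binomial ones (SciPy 1.17.1). The functions were tested on simulated data and found every planted gene, width and edge in 20 of 20 runs per list. The T-box genes and lists were chosen with earlier results of these data known. The rule for named genes took all 10, plus any gene of the other lists with a peak. A further sequence stretch is not reported here. No p-value was computed.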

Additional observations from a re-analysis of the deposited data

How the results depend on the processing

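The alternatives gave 69 values for 12 results, of which 60 were counted as the same, 7 moved and 2 changed sign. The same means within 1.5 times the reported count or length, or within the range of the 2 genes. For the width ratios, a setting that leaves 1 gene returns that gene's own value, which cannot lie outside this range. Such values are among the 60 unless the sign changed, so the tally does not measure how stable these ratios are. With peaks of at least 5000 bp the ratio to Control went from 0.25 to 0.04 in EZHIP and from 0.09 to 0.18 in K27M. Flanks of 0 or 20000 bp, joining of peaks closer than 10000 bp and an overlap of at least 1000 bp moved none of the results they were applied to. The flanks and the overlap minimum do not enter the 5′ end counts, which have no value for them. With peaks of at least 5000 bp only, Tbx2 and Tbr1 lost their peaks, which left 1 gene in Control and 1 in EZHIP. In K27M the count fell from 3 to 2 (Tbx1 and Tbx20), which is just within 1.5 times. Under this limit 1 gene had its 5′ end inside an EZHIP peak. Taking the 5′ end from any protein-coding transcript gave 2 genes in Control and 2 in K27M, and allowing 1000 bp between 5′ end and peak also gave 2 in each. Both rules are wider than the main one, and the shares of all genes under them were not computed. The median log2 width ratio of K27M to EZHIP was -0.16 over Tbx2 and Tbx20. It was 0.14 with peaks of at least 5000 bp and 0.14 with the same number of widest peaks per list, since both leave Tbx20 alone. The equal number of peaks removed the Tbx2 peak from K27M, which left Tbx1 and Tbx20 there. No paired analysis was possible because a group never held more than 1 library, which also prevented leaving one out. The unknown depth limits every comparison of presence and width.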
